A study of Mus musculus with 4 samples.

Results

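The 10 genes described here encode transcription factors that drive the step from macrophage to osteoclast: Nfatc1, Fos, Fosl2, Jun, Junb, Jdp2, Prdm1, Mitf, Tfe3 and Spi1. They were picked by gene symbol from a deposited table of 34745 mouse genes, and each symbol matched 1 row. RNA came from BMMs, macrophages grown from the bone marrow of male wild-type C57BL/6 mice aged 8 weeks, which were kept for 12 h without serum. All cells then received RANKL at 100 ng/mL for 24 h, together with either dimethyl itaconate (RANKL+DI, 2 libraries) or DMSO (RANKL+Veh, 2 libraries). The sample labels state a DI dose of 20 mM and the paper a dose of 20 μM. No group without RANKL is part of these data, so induction by RANKL itself cannot be read from them. The labels do not say whether the libraries of a group came from separate mice or cultures, so p-values measure the spread between these libraries, which may be technical.

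RANKL is the cytokine that commits macrophages to the osteoclast fate. It acts through its receptor RANK on NF-κB and MAP kinases and raises the AP-1 factor c-Fos, which pairs with a Jun protein. AP-1 then helps to switch on NFATc1, a calcium- and calcineurin-dependent factor regarded as the master regulator of osteoclast genes. PU.1 (the product of Spi1), MITF and TFE3 act beside them as lineage factors, and Blimp1 (the product of Prdm1) represses genes that hold macrophages back from the osteoclast fate.

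The libraries held between 16085692 and 19403480 counts. Levels are given as CPM (counts relative to the library's total, with library sizes scaled by TMM), and 12590 genes passed the filter on low counts, all 10 factors among them. BMM identity was checked with 8 macrophage markers. All 8 were detected in each library, and their summed level, mostly Lyz2, was 28424 and 29238 CPM under DI against 23108 and 22245 CPM under vehicle. Of these 8 markers 5 were higher and 2 were lower with DI (edgeR's quasi-likelihood test). These are 87.5% of the list, against 14.8% of all tested genes past 0.05 after adjustment, 7.14% higher and 7.70% lower. On the log2 scale the 5 rises ran from 0.18 for Adgre1 to 0.57 for Itgam. The 2 that fell were Fcgr1, at -0.60, and Cd14, at -0.51. The part of macrophage number or state in the results was not tested. Of the markers of other cells, those of B cells, T and NK cells, mast cells and basophils, dendritic cells and erythroid cells had at most 13 counts in any library. The 8 neutrophil markers summed to 11.1 and 10.3 CPM under DI against 9.23 and 10.4 CPM under vehicle. The 7 stromal markers, led by Col1a1, summed to 48.9 and 49.9 CPM under DI against 50.1 and 54.0 CPM under vehicle, and the part of these cells in the results was not tested. In bulk RNA, fewer cells of a type and less RNA per cell cannot be told apart.

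Of the 10 factors, 6 were lower with DI, 1 was higher and 3 did not pass an adjusted p of 0.05 in edgeR's quasi-likelihood test. Jdp2 fell most, 3.99-fold, followed by Prdm1, Fos, Fosl2, Nfatc1 and Junb. Tfe3 rose, and Spi1, Jun and Mitf did not pass. Among all tested genes, 14.8% passed the same threshold, 7.70% lower and 7.14% higher with DI. The median log2 fold change was -0.36 over the 10 factors and 0.0012 over all tested genes. In CPM the RANKL+DI and RANKL+Veh libraries did not overlap for 9 of the 10 factors, 6 lower and 3 higher with DI. Among all tested genes 58.6% did not overlap, 29.6% lower and 29.0% higher.

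**Figure D1:**
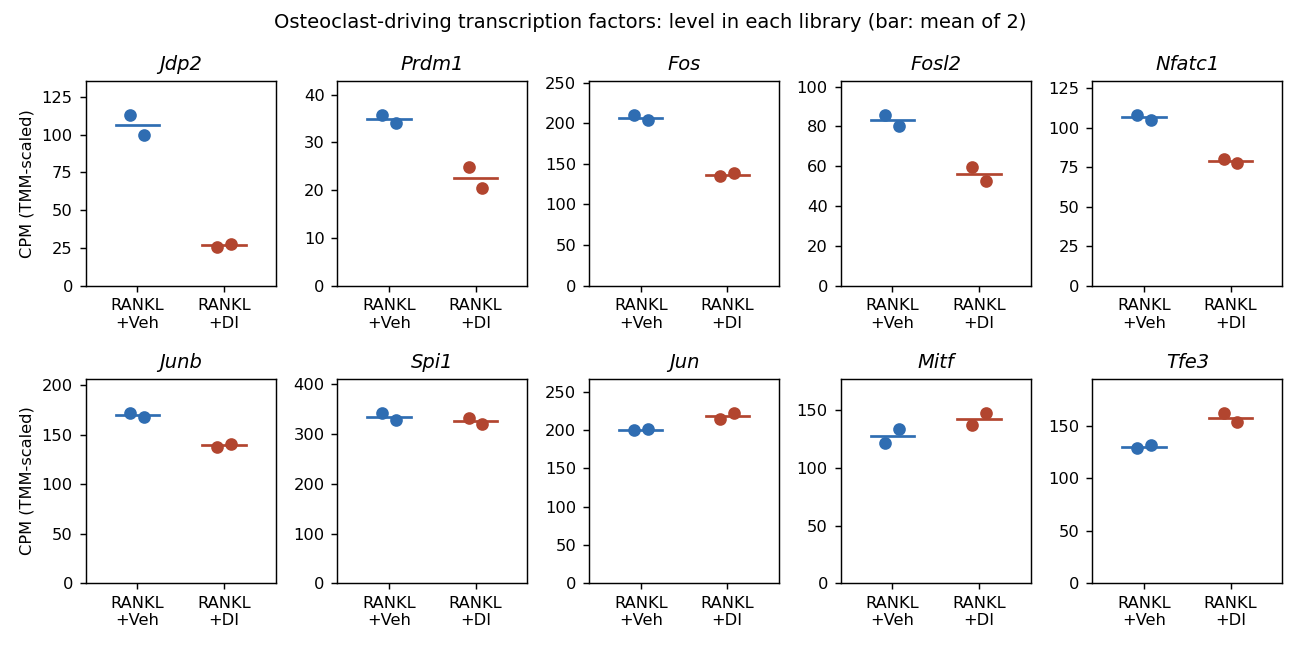
Level of each factor in CPM (vertical axes from 0, each panel on its own scale) in the 2 libraries of RANKL+Veh (blue) and of RANKL+DI (red), with a bar at the mean. The groups lie apart in every panel but that of Spi1, and Jdp2 has the widest gap, between means of 106 CPM under vehicle and 26.6 CPM with DI.

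Jdp2 encodes Jun dimerization protein 2, a small basic leucine zipper protein that pairs with Jun proteins and takes part in RANKL-driven osteoclast formation. It was counted 436 and 523 times in the RANKL+DI libraries against 2103 and 1667 times in the RANKL+Veh libraries, so the groups stood far apart. The mean dropped from 106 ± 9.05 CPM to 26.6 ± 1.76 CPM (SD, n = 2 each). This is a log2 fold change of -1.998 with a standard error of 0.088 (edgeR's quasi-likelihood test, adjusted p = 3.20e-04), a 3.99-fold lower level. Jdp2 was the only factor with a log2 fold change below -1, a size that 0.850% of all tested genes reached in the same direction with an adjusted p under 0.05. Of the 12590 tested genes, 31 had a lower log2 fold change, 10 of them with an average log2 CPM over 1. The 95% interval of Jdp2, from -2.21 to -1.78, did not meet that of any other factor. The gene lies on chromosome 12 from 85599105 to 85639878 on GRCm38 (ENSMUSG00000034271). Its exons overlap the long non-coding RNA gene Gm47863 on the opposite strand by 87 bases within the deposited gene span, and no source says whether strand was used in counting.

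Fos encodes c-Fos, the AP-1 partner without which mice form no osteoclasts. It had 2315 and 2602 counts under DI against 3913 and 3397 under vehicle, and both RANKL+DI libraries lay below both RANKL+Veh libraries. The level fell from 207 ± 4.32 to 137 ± 2.75 CPM (SD, n = 2 each), or by 0.60 on the log2 scale (standard error 0.043, edgeR's quasi-likelihood test, adjusted p = 0.00115). Fos (ENSMUSG00000021250) spans 85473890 to 85477273 on chromosome 12. Because Fos is also an immediate early gene that handling of cells can raise, 13 other immediate early genes were read beside it. Of the 12 tested, Klf4 was lower, at -0.30 on the log2 scale, and Ier5, Klf2 and Klf6 were higher, at 0.22, 0.54 and 0.16, so 33.3% passed against 14.8% of all tested genes. None of these 4 passed with any 1 of the 4 libraries left out (edgeR, adjusted p = 0.0519 to 0.143). Egr1 had 28 and 41 counts under DI against 30 and 40 under vehicle. The 95% interval of its log2 fold change, from -0.82 to 0.70, holds the change of Fos. Dusp1 had 885 and 986 counts under DI against 939 and 782 under vehicle. Egr2 was uneven within a group, with 497 and 1788 counts under DI against 1211 and 926 under vehicle. The part of handling in the level of Fos was not tested beyond these values.

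Fosl2 encodes Fra-2, another Fos family protein. With 1020 and 983 counts under DI against 1597 and 1339 under vehicle, it went from 83.0 ± 3.78 to 55.9 ± 4.95 CPM (SD, n = 2 each). On the log2 scale this is -0.57 (standard error 0.080, edgeR's quasi-likelihood test, adjusted p = 0.00807). The changes of Fos and Fosl2 were closer to each other than the standard error of either. Fosl2 (ENSMUSG00000029135) lies on chromosome 5 from 32135801 to 32157842.

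Of the Jun genes, whose products pair with the Fos proteins, Junb fell and Jun did not pass. Junb had 2357 and 2646 counts under DI against 3205 and 2801 under vehicle, and fell from 170 ± 2.75 to 139 ± 2.68 CPM (SD, n = 2 each). The log2 fold change of -0.29 (standard error 0.043) is the smallest of the 6 decreases (edgeR's quasi-likelihood test, adjusted p = 0.00931). Jun had 3670 and 4169 counts under DI against 3721 and 3346 under vehicle, 218 ± 6.02 against 200 ± 0.797 CPM (SD, n = 2 each). Its log2 fold change was 0.12, with a 95% interval from 0.021 to 0.22, and it did not pass the adjusted threshold (edgeR's quasi-likelihood test, adjusted p = 0.109). In the deposited FPKM, which carry no TMM scaling, the Jun libraries overlapped, at 64.5 and 67.4 under DI against 64.9 and 65.2 under vehicle. Jun (ENSMUSG00000052684) lies on chromosome 4 from 95049034 to 95052222 and shares 232 exon bases with the antisense gene Junos. Junos had 83 and 110 counts under DI against 76 and 60 under vehicle. Junb (ENSMUSG00000052837) lies on chromosome 8 from 84976909 to 84978748.

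Nfatc1, the master regulator, was lower in both RANKL+DI libraries. It had 1381 and 1454 counts there and 2010 and 1749 under vehicle, a fall from 106 ± 2.05 to 78.9 ± 2.06 CPM (SD, n = 2 each). The log2 fold change was -0.43 (standard error 0.052, edgeR's quasi-likelihood test, adjusted p = 0.00504), so 74.2% of the vehicle level remained. Over the 15 alternative settings it ranged from -0.53 to -0.40. Nfatc1 (ENSMUSG00000033016) lies on chromosome 18 from 80606205 to 80713071.

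Prdm1 had the fewest counts of the 10 factors, 428 and 383 under DI against 666 and 568 under vehicle. Its level went from 34.9 ± 1.17 to 22.7 ± 3.19 CPM (SD, n = 2 each). The log2 fold change was -0.62 (standard error 0.11, edgeR's quasi-likelihood test, adjusted p = 0.0162). Without vehicle replicate 1 the log2 fold change was -0.59 and no longer passed (edgeR, adjusted p = 0.0668). Prdm1 (ENSMUSG00000038151) spans 44437177 to 44528501 on chromosome 10.

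The lineage factors Tfe3, Mitf and Spi1 differed by 0.28 or less on the log2 scale. Tfe3 had 2785 and 2875 counts under DI against 2391 and 2190 under vehicle, and rose from 130 ± 2.21 to 158 ± 6.31 CPM (SD, n = 2 each). Its log2 fold change of 0.28 (standard error 0.048) passed the threshold (edgeR's quasi-likelihood test, adjusted p = 0.0151). It did not pass without vehicle replicate 1 (adjusted p = 0.0693, edgeR) or without vehicle replicate 2 (adjusted p = 0.0511, edgeR). On the log2(FPKM + 1) scale its log2 fold change was 0.15 (limma, adjusted p = 0.146). Tfe3 (ENSMUSG00000000134) lies on chromosome X from 7762560 to 7775202.

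Mitf, the other MiT family member that acts in osteoclasts, had 2359 and 2776 counts under DI against 2263 and 2237 under vehicle. The log2 fold change was 0.16, with a 95% interval from -0.0033 to 0.32 (edgeR's quasi-likelihood test, adjusted p = 0.174). The table counts Mitf as 1 gene, so its isoforms cannot be told apart. Mitf (ENSMUSG00000035158) spans 97807052 to 98021349 on chromosome 6.

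Spi1 had the highest CPM of the 10 factors, with 5681 and 5997 counts under DI against 6374 and 5445 under vehicle. At 325 ± 7.88 against 334 ± 10.8 CPM (SD, n = 2 each) it was the only factor whose groups overlapped in CPM. In the deposited FPKM the groups of Spi1 lay apart, at 96.3 and 93.5 under DI against 107 and 102 under vehicle. Those of Jun and Mitf overlapped on that scale. The 95% interval of its log2 fold change ran from -0.14 to 0.064 (edgeR's quasi-likelihood test, adjusted p = 0.586). Spi1 (ENSMUSG00000002111) lies on chromosome 2 from 91082390 to 91115756.

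**Figure D2:**
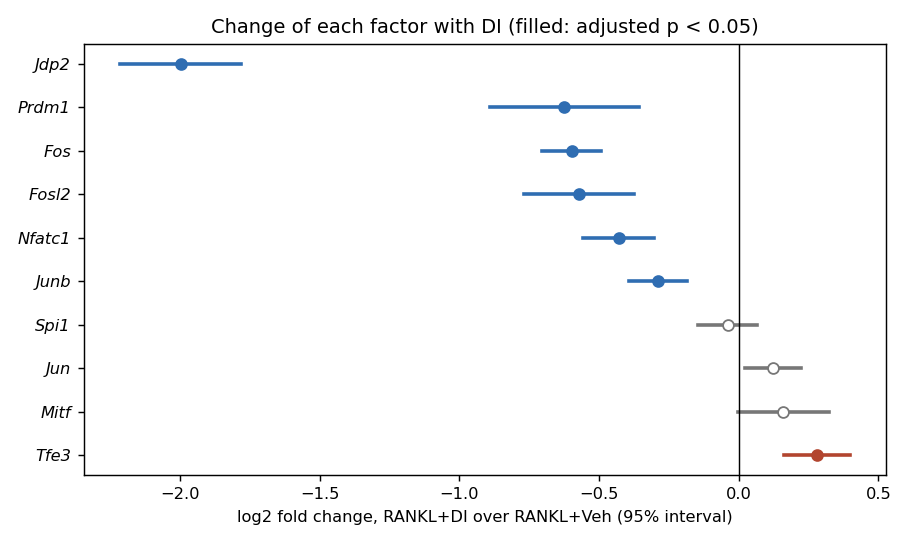
Log2 fold change of each factor, RANKL+DI over RANKL+Veh (horizontal axis), with its 95% interval, lowest at the top; filled points passed an adjusted p of 0.05. Jdp2 stands alone near -2, the other 5 decreases lie between -0.62 and -0.29, and Tfe3 is the only increase that passed.

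The order of the changes can be read only in part. The 95% intervals of Prdm1, Fos, Fosl2 and Nfatc1 overlapped one another, and so did those of Jun, Mitf and Tfe3 at the other end. Overlap does not show that the changes are alike, and differences between the factors were not tested. Junb lay above Fos without overlap and met the intervals of Prdm1, Fosl2 and Nfatc1. No factor had a transcript that matched another gene at 95% identity or more over at least 20% of its length.

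The promoters are shown for Jdp2, Fos and Prdm1, the 3 largest decreases, and for Jun as the AP-1 gene that did not pass. Each is the 250 bases before a RefSeq transcription start on GRCm38.p6, written 5′ to 3′ along the gene. Where a gene has several starts, the one closest to the deposited gene start was taken. Capitals mark matches on either strand to TGANTCA (an AP-1 motif), TGACGTCA (the CRE that Jun-ATF pairs bind), GGAAA (the NFAT core), GGAAGT (an ETS motif, bound by PU.1 among others) and CACGTG (an E-box of MITF and TFE3). No motif contains another.
Jdp2 (chr12:85598855-85599104, plus strand): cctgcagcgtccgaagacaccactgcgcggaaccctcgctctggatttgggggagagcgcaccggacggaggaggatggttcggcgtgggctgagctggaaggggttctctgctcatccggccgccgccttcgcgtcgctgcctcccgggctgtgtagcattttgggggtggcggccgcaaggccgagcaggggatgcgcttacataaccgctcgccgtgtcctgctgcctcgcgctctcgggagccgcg
Fos (chr12:85473640-85473889, plus strand): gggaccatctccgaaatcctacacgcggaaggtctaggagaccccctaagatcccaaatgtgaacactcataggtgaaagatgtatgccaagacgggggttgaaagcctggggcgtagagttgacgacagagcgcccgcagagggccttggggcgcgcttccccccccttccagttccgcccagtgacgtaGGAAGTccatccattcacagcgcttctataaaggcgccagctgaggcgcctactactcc
Prdm1 (chr10:44458749-44458998, minus strand): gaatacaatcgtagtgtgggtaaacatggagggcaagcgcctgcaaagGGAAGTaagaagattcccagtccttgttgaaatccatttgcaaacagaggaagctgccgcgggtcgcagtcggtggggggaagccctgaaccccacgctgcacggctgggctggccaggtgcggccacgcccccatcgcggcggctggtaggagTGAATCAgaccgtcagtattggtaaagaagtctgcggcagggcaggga
Jun (chr4:95052223-95052472, minus strand): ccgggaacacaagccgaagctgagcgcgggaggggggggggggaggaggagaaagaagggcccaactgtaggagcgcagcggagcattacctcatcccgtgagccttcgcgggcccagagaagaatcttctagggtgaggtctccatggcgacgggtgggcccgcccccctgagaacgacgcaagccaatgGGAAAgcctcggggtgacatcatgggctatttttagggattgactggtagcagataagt

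The Jdp2 window held none of the 5 motifs. Jdp2 and Mitf have 3 RefSeq starts each and Tfe3 has 2, and only 1 window per gene was searched. Fos held GGAAGT, 59 bases before the start. Prdm1 held a match to TGANTCA, where N is any base, as TGAATCA 48 bases before its start, and GGAAGT at 202 bases. The start of Prdm1 in RefSeq lies 69753 bases from the end of the deposited gene span, so a start further upstream was not covered. Jun held GGAAA, 59 bases before the start. Of 32817 promoter windows of the same length, 6.75% held TGANTCA, 1.55% TGACGTCA, 55.6% GGAAA, 19.7% GGAAGT and 6.02% CACGTG. Promoters were found for 8 of the 10 factors, and those of Nfatc1 and Spi1 are not shown. Of the 4 other windows, Junb and Tfe3 held GGAAGT, Tfe3 also held GGAAA, and Fosl2 and Mitf held none. Prdm1 was thus the only one of the 8 with TGANTCA. Only exact matches were counted. A site that differs from a motif by a base, as TGACATCA in the Jun window does from TGACGTCA, was not. A window without a match is thus not shown to lack such sites. A match is a run of letters and not evidence that a factor binds there.

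Fos and Jdp2 lie on the same stretch of chromosome 12. From the end of Fos to the start of Jdp2 there are 122 kb, and another gene of the family, Batf, starts 46.8 kb beyond Jdp2. Batf had 54 and 58 counts under DI against 50 in each vehicle library, a log2 fold change of 0.14 with a 95% interval from -0.34 to 0.61 (edgeR's quasi-likelihood test, adjusted p = 0.696). Within 500 kb of the start of Fos the table held 20 genes, 15 of them tested. The 3 that passed were Fos, Jdp2 and Pgf, and all were lower with DI. Of all tested genes 14.8% passed, so 3 of 15 is not read as a feature of the region. Pgf, which encodes placental growth factor, starts 307 kb before the start of Fos and had 49 and 55 counts under DI against 259 and 230 under vehicle. On the log2 scale Pgf was at -2.26 (standard error 0.13, edgeR's quasi-likelihood test, adjusted p = 5.85e-04). The 12 other tested genes of the window did not pass. The window was chosen after the values were seen and carries no test of its own.

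**Figure D3:**
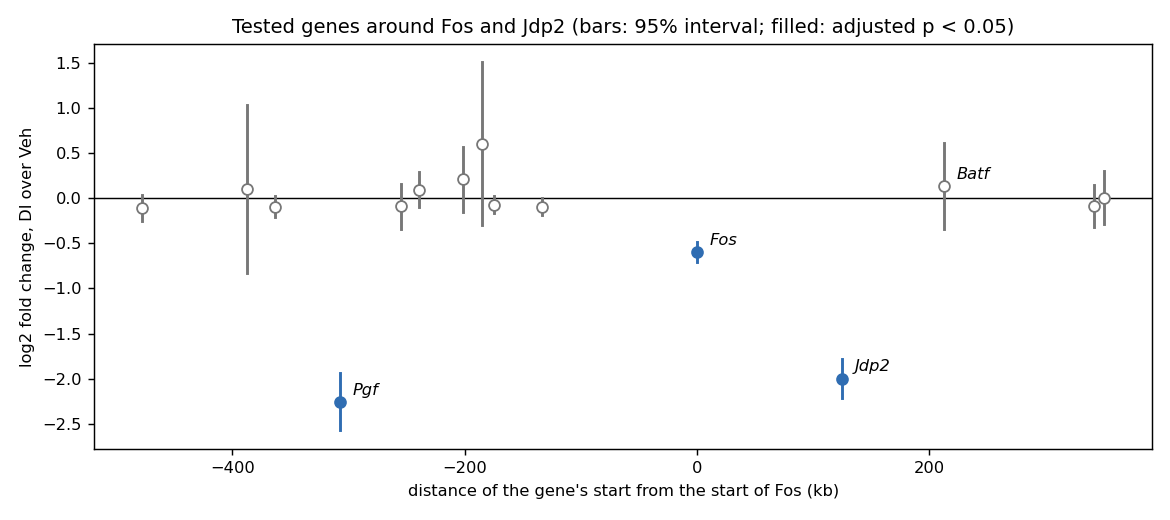
Log2 fold change (vertical axis, bars for the 95% interval) of the 15 tested genes within 500 kb of the start of Fos, against the distance of each gene's start in kb. The filled points, Pgf, Fos and Jdp2, passed an adjusted p of 0.05 and lie below 0, while the intervals of Batf at 0.14 and of Zc2hc1c at 0.60 hold 0.

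Levels can be compared between genes only per length, and the deposited FPKM serve for that with a limit. The length behind the FPKM is 3792 bases for Fos, whose gene spans 3384 bases, and 20656 bases for Tfe3, whose gene spans 12643 bases. Shares are therefore also given with the union of GENCODE M21 exons as length, an alternative added after the values were seen. The 12 AP-1 and ATF genes (4 Fos, 3 Jun and 3 Batf genes, Jdp2 and Atf3) summed to 381 and 384 FPKM under DI against 418 and 403 under vehicle. The FPKM carry no TMM scaling. With library size as the only scaling the median log2 fold change of all but the lowest genes was -0.10. These sums are therefore not read as a lower AP-1 total with DI.

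Within this sum the share of Jdp2 was 2.15% and 2.35% under DI against 9.37% and 8.60% under vehicle. By exon union it averaged 2.63% against 10.4%. Fos held 8.99% and 9.22% under DI against 13.7% and 13.8% under vehicle, and by exon union 12.2% and 12.5% against 18.5% and 18.6%. The share of Jun was 16.9% and 17.6% under DI against 15.5% and 16.2% under vehicle. Its mean level was 65.9 FPKM with DI and 65.1 FPKM with vehicle. Shares are parts of a whole, so smaller shares of some genes raise those of the others by construction. Atf3, which encodes a stress-induced relative of Jdp2, had the largest share in every library, 36.4% and 35.7% under DI against 23.7% and 23.9% under vehicle. Both length scales thus gave Jdp2 and Fos a smaller part and Atf3 a larger part in the RANKL+DI libraries. On either scale a gene has the same length in every library, so the scales are not separate checks of these directions.

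The ratio of Fos to Jun in FPKM was 0.530 and 0.525 under DI against 0.884 and 0.854 under vehicle. By exon union the ratio was 0.855 and 0.846 against 1.43 and 1.38, so which of the 2 genes was higher under vehicle depends on the length used. The ratio of Jun to Jdp2 in FPKM was 7.88 and 7.46 under DI against 1.66 and 1.88 under vehicle. These ratios do not depend on how libraries were scaled, and the groups did not overlap for either. Because Fos and Jdp2 fell and Jun did not, both ratios had to shift and are not a separate result. With 2 libraries against 2, an exact permutation test cannot go below p = 0.333, so none is given.

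**Figure D4:**
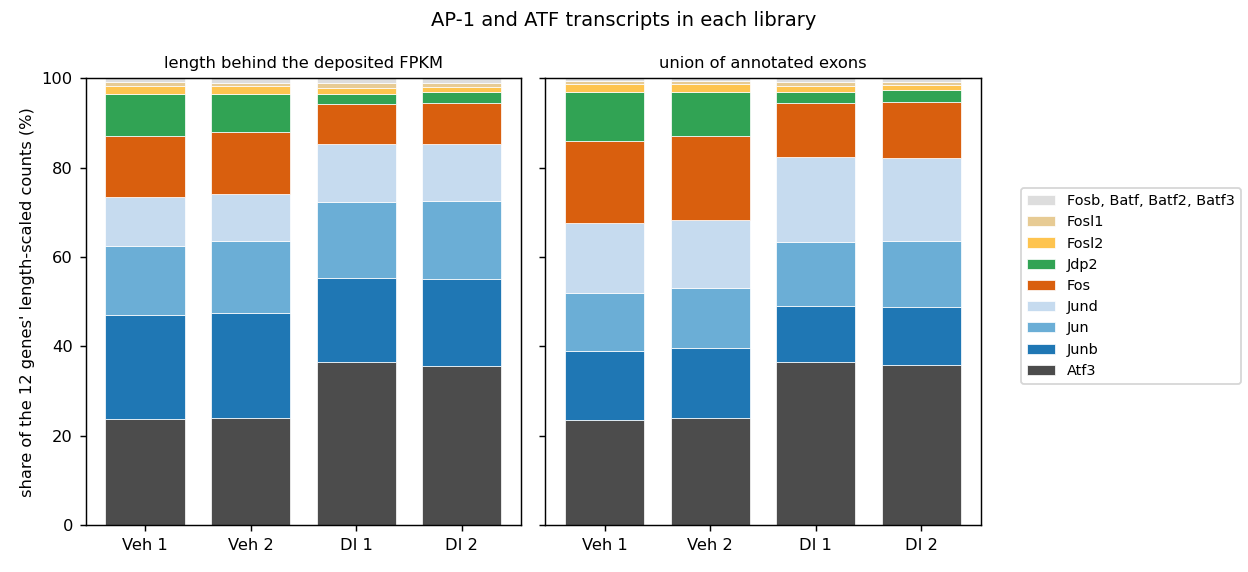
Share in percent of each of 12 AP-1 and ATF genes in their summed length-scaled counts, 1 stacked bar per library, with the length behind the deposited FPKM (left) and the union of annotated exons (right). In both panels the Jdp2 and Fos segments are smaller and the Atf3 segment is larger in the RANKL+DI libraries.

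The rest of the pathway was read from 8 lists with 91 tested genes in all. Of these, 27 passed, 16 higher and 11 lower with DI (edgeR's quasi-likelihood test), where 14.8% of all tested genes passed, 7.14% higher and 7.70% lower. With library size as the only scaling, which shifts the median log2 fold change of all but the lowest genes to -0.10, 34 passed, 11 higher and 23 lower, and over all tested genes 2480 passed in place of 1868. Without vehicle replicate 2, 17 passed, and over all tested genes 1087.

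Among the other AP-1 and ATF genes, 2 of 8 tested passed and both rose, beside 7.14% of all tested genes that passed as higher. Atf3 went from 242 ± 4.59 to 366 ± 4.72 CPM (SD, n = 2 each), up by 0.60 on the log2 scale (standard error 0.038, edgeR's quasi-likelihood test, adjusted p = 8.20e-04). Jund, another Jun gene, had a log2 fold change of 0.27 (edgeR's quasi-likelihood test, adjusted p = 0.0188). Jund did not pass without DI replicate 1 (adjusted p = 0.0549, edgeR) or vehicle replicate 2 (adjusted p = 0.0803, edgeR), which leaves 1 gene passing, nor with library size as the only scaling (0.17, adjusted p = 0.0658, edgeR). The antisense gene Gm11175 that covers 877 of its exon bases had no counts. The median of this list was 0.34. Fosl1 had 137 and 126 counts under DI against 113 and 82 under vehicle and did not pass. Fosb had at most 4 counts in any library and was not tested.

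NFATc proteins enter the nucleus when calcineurin removes their phosphates, which does not hold for the relative NFAT5. Of 18 tested NFAT relatives and genes of this route, 3 were lower, 2 were higher and 13 did not pass, with a median of -0.018. The 5 that passed are 27.8% of the list, against 14.8% of all tested genes. Nfatc2 and Nfat5, which are other NFAT genes, were at -0.36 and -0.28 on the log2 scale (edgeR's quasi-likelihood test, adjusted p = 0.0138 and 0.0173). The catalytic calcineurin subunits differed in sign, with Ppp3cb at -0.27 (adjusted p = 0.0379, edgeR) and Ppp3ca at 0.26 (adjusted p = 0.0141, edgeR). Homer3, a scaffold protein that binds NFAT, had the largest change, 0.72 (standard error 0.068, edgeR's quasi-likelihood test, adjusted p = 0.00253). Its exons share 874 bases with Ddx49 on the opposite strand. Without DI replicate 1, vehicle replicate 1 or vehicle replicate 2 the number that passed was 2, 3 and 2. Nfatc2 was lost without DI replicate 1 and without vehicle replicate 2 (edgeR, adjusted p = 0.0519 and 0.0562), and Nfat5 without DI replicate 1, vehicle replicate 1 and vehicle replicate 2 (edgeR, adjusted p = 0.0684, 0.0552 and 0.0854). Ppp3cb was lost without any 1 of the 4 libraries (edgeR, adjusted p = 0.0782 to 0.139) and Ppp3ca without vehicle replicate 2 (edgeR, adjusted p = 0.0649). With library size as the only scaling 6 passed, 1 higher and 5 lower. Rcan1, an NFAT target and feedback inhibitor of calcineurin, was at -0.18 and did not pass (edgeR's quasi-likelihood test, adjusted p = 0.182).

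Of the MiT relatives, Tfeb was at 0.35 and Tfec at -0.10, and neither passed (edgeR's quasi-likelihood test, adjusted p = 0.201 and 0.690). The vehicle libraries held 817 and 517 counts of Tfeb, and without vehicle replicate 1 its log2 fold change was 0.62 and passed (edgeR, adjusted p = 0.0171).

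Of 16 tested ETS genes and PU.1 partners, 3 passed, all of them higher with DI, and the median was -0.063. This is 18.8% of the list, near the 14.8% of all tested genes that passed. They were Cebpb, at 0.80 (standard error 0.045, edgeR's quasi-likelihood test, adjusted p = 5.80e-04), Cebpa, at 0.75 (standard error 0.11, adjusted p = 0.00898), and Etv5, at 0.40 (adjusted p = 0.0131). C/EBPα and C/EBPβ are myeloid factors that work beside PU.1. The exons of Cebpb share 312 bases with Tmem189 on the opposite strand, which had 3857 and 4440 counts under DI against 3050 and 2647 under vehicle. With library size as the only scaling, 9 genes of this list passed, 3 higher and 6 lower. Etv5 was lost without vehicle replicate 2 (edgeR, adjusted p = 0.0508).

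Of 20 RANK signalling genes 3 passed, or 15%, a share like the 14.8% of all tested genes. Tnfrsf11a, which encodes RANK, was at -0.35 (standard error 0.050, edgeR's quasi-likelihood test, adjusted p = 0.00834). Nfkb2 was at -0.26 (adjusted p = 0.0112) and Mapk3, which encodes ERK1, at 0.30 (adjusted p = 0.0173, both from edgeR). The other 17 genes did not pass, and the median was -0.033. The number that passed was 6 without DI replicate 1 and 1 without vehicle replicate 1. Mapk3 was lost without vehicle replicate 1 and without vehicle replicate 2 (edgeR, adjusted p = 0.0716 and 0.0612), and Nfkb2 without vehicle replicate 1 (edgeR, adjusted p = 0.0516). With library size as the only scaling 6 passed, 1 higher and 5 lower, and with the replicate number as a block 5 passed, 1 higher and 4 lower.

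Genes that these factors switch on in osteoclasts were mixed. Of 12 tested, 5 were lower, 3 were higher and 4 did not pass, with a median of -0.37. Of all tested genes 7.70% passed as lower and 7.14% as higher. Ocstamp, needed for cell fusion, was lowest at -2.52, followed by Mmp9 at -1.64 (standard errors 0.23 and 0.086, edgeR's quasi-likelihood test, adjusted p = 0.00240 and 5.40e-04). Acp5, which encodes TRAP, fell from 41.0 ± 3.17 to 21.2 ± 1.29 CPM (SD, n = 2 each), or by 0.95 on the log2 scale (edgeR's quasi-likelihood test, adjusted p = 0.00248). Ctsk, the collagen-degrading cathepsin, was at -0.58 and the kinase gene Src at -0.55 (edgeR's quasi-likelihood test, adjusted p = 0.00659 and 0.00813). The genes that rose were Itgb3, at 0.56, Atp6v0d2, at 0.27, and Tcirg1, at 0.19, which encode an integrin chain of the vitronectin receptor and 2 subunits of the proton pump (edgeR's quasi-likelihood test, adjusted p = 0.00815, 0.00623 and 0.0305). With library size as the only scaling Tcirg1 was at 0.091 and did not pass, so that 2 genes were higher and 6 lower. It was also lost without DI replicate 1, DI replicate 2 or vehicle replicate 2 (edgeR, adjusted p = 0.0806, 0.0743 and 0.0761). The fusion gene Dcstamp was at -0.19, with a 95% interval from -0.49 to 0.11 (edgeR's quasi-likelihood test, adjusted p = 0.367). Car2, which encodes carbonic anhydrase II, had only 12 and 10 counts under DI against 31 and 22 under vehicle and did not pass (log2 fold change -1.28, edgeR's quasi-likelihood test, adjusted p = 0.0641). Calcr had no counts and Oscar at most 4 in any library.

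Blimp1 represses Irf8 and Bcl6, which encode factors that restrain osteoclast formation. Irf8 rose from 91.8 ± 0.604 to 125 ± 1.01 CPM (SD, n = 2 each), by 0.45 on the log2 scale (standard error 0.045, edgeR's quasi-likelihood test, adjusted p = 0.00301). Bcl6 was at 0.18 and did not pass (edgeR's quasi-likelihood test, adjusted p = 0.168). The ratio of Irf8 to Prdm1 in FPKM was 4.55 and 5.62 under DI against 2.33 and 2.47 under vehicle. Because Irf8 rose and Prdm1 fell, this ratio had to rise and is not a separate result. Whether the lower Prdm1 had a part in the level of Irf8 was not tested.

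**Figure D5:**
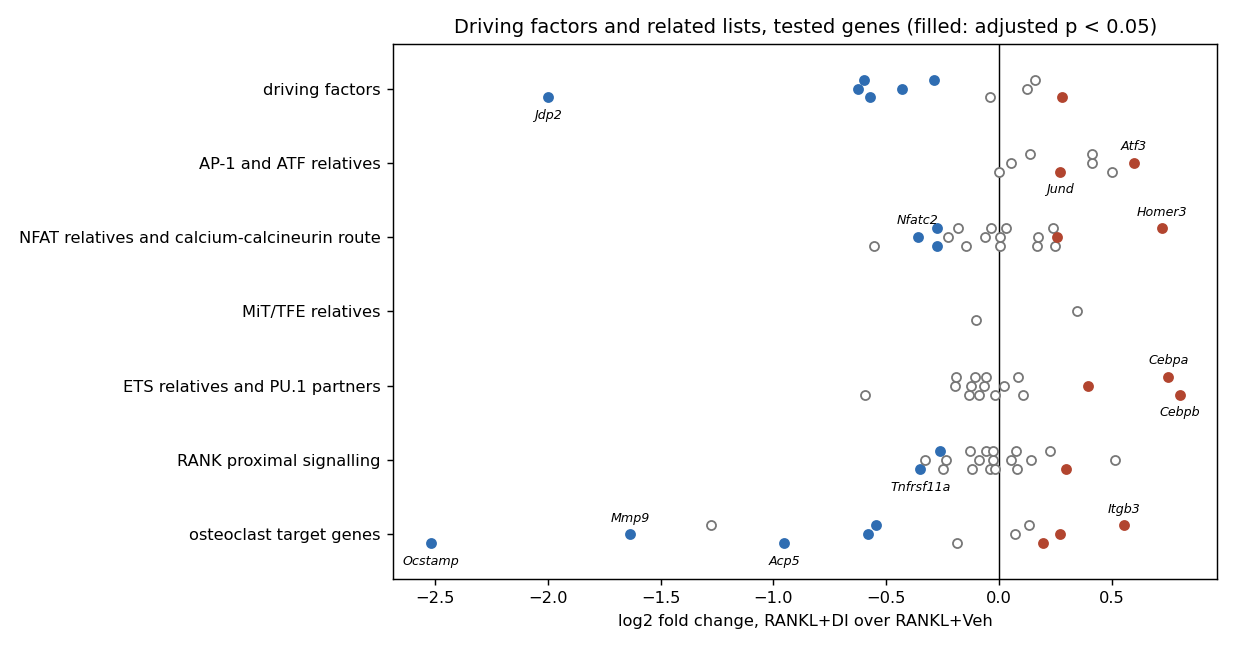
Log2 fold change, RANKL+DI over RANKL+Veh (horizontal axis), of the tested driving factors and of the tested genes of 6 related lists, 1 row per list; filled points passed an adjusted p of 0.05. The driving factors reach from -1.998 to 0.28, and the osteoclast target genes lie on both sides of 0. The 2 of 8 AP-1 relatives and the 3 of 16 ETS genes and PU.1 partners that passed lie above 0. Of all tested genes 14.8% passed.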

How the data were processed

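RNA was measured in 4 libraries of BMMs, grouped by their labels into RANKL+DI and RANKL+Veh (DMSO). The table that the authors deposited holds read counts, not normalized, beside FPKM values (fragments scaled to gene length and library size). The aligner, the counting program and the annotation are not given in the sources used here. The submitters' processing notes name GRCm38 and mm10. An annotated copy of the table was not used.

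TMM factors ran from 0.963 to 1.04. Low genes were dropped by filterByExpr at its defaults, and edgeR 4.0.16 (R 4.3.3) fitted treatment alone by quasi-likelihood, with p-values adjusted after Benjamini and Hochberg over 12590 genes. Standard errors were derived from each gene's F statistic, and 95% intervals from the moderated degrees of freedom. The common biological coefficient of variation was 0.0905. Libraries of a group differed by more than sampling noise (chi-square per degree of freedom 7.57 and 7.74) and were used as 2 replicates. At this depth 3 counts equal 0.160 to 0.180 CPM, and such limits cover counting error only. The fit was tested on simulated data.

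The members and lists were chosen with earlier results of these data known. Each list contributes its 3 largest rises and 3 largest falls among genes past 0.05 (all where 5 or fewer passed), and Dcstamp, Acp5, Ctsk and Mmp9 in any case. Other genes were named after their values were seen. Where a symbol had 2 identifiers (Itgam), the row with more counts was taken. The fit was repeated with other scalings (upper quartile, size factors of DESeq2 1.42.0, library size only), with no filter or a minimum of 10 counts per library, with other tests (edgeR's exact test, DESeq2's Wald test, voom, and limma 3.58.1 on log2(FPKM + 1) or log2(FPKM + 0.01)), with the replicate number as a block, and without each library. Overlaps used GENCODE M21, where all 10 factors lie on the same chromosome, and near-identical transcripts were sought with BLAST+ 2.17.0. The values of 1 listed gene are not reported here, though the counts over all listed genes hold it.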

Additional observations from a re-analysis of the deposited data

How the results depend on the processing

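Over the 15 alternatives to the fit the 10 factors kept their direction, and 8 of them also kept their side of the threshold in all 15. Prdm1 lost its call in 1 alternative and Tfe3 in 4. The number of factors that passed ranged from 5 to 7 with 1 library left out. The numbers of genes in the related lists moved more. With 1 library left out, 17 to 23 of all listed genes passed, with 1 to 2 for AP-1 and ATF relatives, 2 to 5 for the NFAT route, 0 to 1 for MiT relatives, 1 to 6 for RANK signalling and 0 to 1 for immediate early genes. With library size only, 1 AP-1 relative, 9 ETS genes and PU.1 partners, 6 RANK signalling genes and 2 immediate early genes passed. On log2(FPKM + 1) and log2(FPKM + 0.01), 1 AP-1 relative passed in each and 6 and 5 ETS genes and PU.1 partners. On log2(FPKM + 1), 2 immediate early genes passed. Without a filter, 5 RANK signalling genes passed. The DESeq2 Wald test and edgeR's exact test each called 1 immediate early gene. By exon union the mean share of Fos was 12.3% with DI and 18.5% with vehicle, that of Jdp2 2.63% and 10.4%, and that of Jun 14.5% and 13.2%, against 9.10% and 13.8%, 2.25% and 8.99%, and 17.2% and 15.8% in FPKM. The cause of these moves was not tested, except that fewer libraries or another length enter by construction. Egr2 reversed to -1.06 without DI replicate 2, from 0.046, and was at 0.66 without DI replicate 1. The labels do not say whether the replicate numbers pair the samples. Replicate differences correlated at -0.030 between the groups, a value that cannot settle this. With the replicate number as a block, 5 RANK signalling genes and 0 immediate early genes passed, the number of factors stayed at 7, and over all genes 1389 passed in place of 1868. Over the other alternatives with all libraries 1501 to 2480 genes passed, and with 1 library left out 1087 to 1394. Depth limits the genes with few counts: the 95% interval of Batf, with 50 to 58 counts, reached from -0.34 to 0.61.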

Other observations

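Some genes of the related lists differed more between libraries of a group than between the groups, and were singled out after their values were seen. Egr2, an early response gene, had 497 and 1788 counts under DI, against 1211 and 926 under vehicle. Mapk14, which encodes p38α, had 3443 and 1559 counts under DI, against 1542 and 3092 under vehicle. Map3k7, which encodes TAK1, had 1135 and 1435 counts under DI, against 608 and 1127 under vehicle.

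The length behind the deposited FPKM exceeds the gene span for 2 of the 10 factors (Fos and Tfe3) and for 5.69% of 18186 genes with a count and an entry in GENCODE M21.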
